A study of Danio rerio with 4 samples.

Results

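Opsins are light-sensitive receptors built on a retinal chromophore, and those outside the rods and cones serve light detection by the pineal organ, the deep brain and inner retinal neurons. The 10 genes described here are non-visual and pineal opsins of zebrafish, taken by symbol from a count table of 22976 gene names. They are the pineal rhodopsin exorh, the vertebrate ancient opsins valopa and valopb, the encephalopsin opn3, the melanopsins opn4a and opn4b, the novopsins opn6a and opn6b, and the RGR opsins rgra and rgrb. Each symbol stood on 1 row of the table except exorh, which stood on 2, so 11 rows are described. The genes were chosen by symbol with their mutant and sibling counts in these same libraries already known, so the difference between groups in those counts is given as a description and nothing is tested on it. Counts of their rows past the threshold of the fit over all genes are printed beside the share of all genes past it, and support nothing.

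Whole embryos of the zebrafish (Danio rerio, strain AB) gave the RNA, and had been reared in egg water to 7 days post fertilisation with no treatment. One group was tubgcp6 mutants, the other their siblings from the same kind of cross between tubgcp6 heterozygotes, and each had 2 libraries described as biological replicates. The product of tubgcp6 belongs to the gamma-tubulin ring complex, from which microtubules are nucleated. The sources used here give neither the lesion, nor the makeup of the siblings (wild-type, heterozygous or mixed), nor the number of embryos per library or the time of day of collection. Whether the libraries came from separate clutches is not stated either, so standard errors describe these libraries only. They come from a fit that shares its estimate of variation over all genes, and are not the spread of each row alone.

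The reads assigned to genes numbered between 14246582 and 20652276 per library, the lowest and the highest both in siblings. The table's tubgcp6 row had 510 and 531 counts in mutants and 498 and 803 in siblings, a log2 fold change of -0.33 ± 0.10 (SE; mutant over sibling throughout). All levels are given as CPM, read counts scaled to a common library depth. They do not take transcript length into account, since no lengths were used here, and therefore levels are compared between libraries for the same gene and not between genes. In whole-embryo RNA, fewer cells of a type and less RNA per cell cannot be told apart.

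The gene exorh was higher in mutants, 6 genes (valopa, opn3, opn4a, opn4b, opn6a and opn6b) were lower, and rgra, rgrb and valopb had log2 fold changes of -0.22, 0.15 and 0.26. In the fit over all 20097 tested rows, all 11 rows passed the filter on low counts. Of these, 2 lay past an adjusted p of 0.05 on the higher side and 6 on the lower side, where 22.9% and 21.0% of all tested rows did. Because this same contrast was known when the genes were proposed, nothing is read from the comparison with those shares. In DESeq2's Wald test 2 rows lay past the threshold on the higher side and 4 on the lower side. The rows of opn4a and valopa fell short of it there, and 3207 and 2916 rows of all genes passed. The median log2 fold change of the 11 rows was -1.03 and that of all tested rows 0.01.

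**Figure D1:**
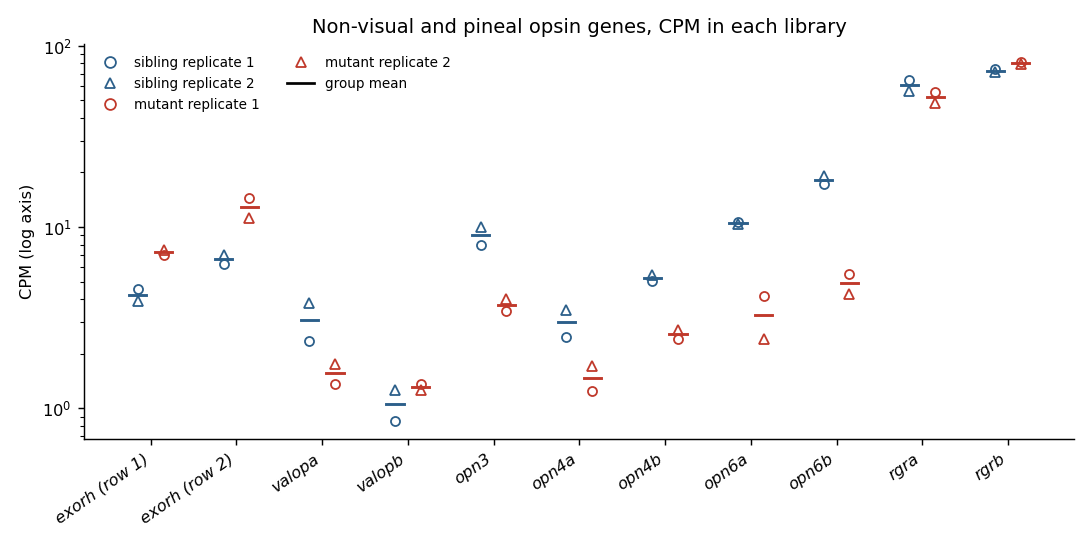
CPM (log axis) of each of the 11 rows in the 2 sibling (blue) and 2 mutant (red) libraries, with the group mean as a bar. The mutant points of both exorh rows lie above the sibling points, those of valopa, opn3, opn4a, opn4b, opn6a and opn6b lie below them, and those of valopb, rgra and rgrb lie close to them.

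The pineal opsin exorh, an extra-ocular rhodopsin of pineal photoreceptors, had the opposite sign to the rod opsin. Its first row held 119 and 136 counts in mutants and 64 and 81 in siblings, or 7.03 and 7.49 against 4.53 and 3.93 CPM. Its second row held 244 and 204 counts against 88 and 145, or 14.4 and 11.2 against 6.23 and 7.03 CPM. On both rows each mutant library was above each sibling library. The log2 fold change was 0.79 ± 0.20 (SE) on the first row and 0.94 ± 0.17 on the second. With the rows added together, the gene stood at 20.1 ± 1.93 CPM in mutants against 10.9 ± 0.135 CPM in siblings (mean ± SD of 2 libraries), a log2 fold change of 0.88 ± 0.14. Reads that fall on both rows could be split between them in a way the table does not show: the count on the second row was 2.05 and 1.5 times that on the first in mutants and 1.38 and 1.79 times in siblings. Without sibling replicate 2 the first row was at 0.68 and the second at 1.04.

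In the RefSeq annotation of the assembly GRCz12tu, exorh and the rod opsin gene rho lie on chromosome 8 with 2 protein-coding genes between them, ift122 and magi1a. That assembly differs from the GRCz11 build named for these data, so it is used only for gene order and for overlaps of gene spans. The levels of rho were 56.5 and 48.2 CPM in mutants and 553 and 502 CPM in siblings, a log2 fold change of -3.33 ± 0.10. With both exorh rows added together, the ratio of exorh to rho counts within a library was 0.380 and 0.389 in mutants and 0.0195 and 0.0218 in siblings. This ratio needs no scaling between libraries, and pooled over libraries it was 18.4 times as high in mutants.

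The vertebrate ancient opsins, known in fish from horizontal cells and deep brain neurons, were unlike each other. For valopa there were 23 and 32 counts in mutants and 33 and 79 in siblings, or 1.36 and 1.76 against 2.34 and 3.83 CPM. Both mutant values were below both sibling values, with a log2 fold change of -1.03 ± 0.31. The sibling libraries themselves differed 1.64-fold. Without sibling replicate 2 the change of valopa was -0.58. For valopb there were 23 and 23 counts in mutants and 12 and 26 in siblings, or 1.36 and 1.27 against 0.85 and 1.26 CPM. The lower mutant value and the higher sibling value of valopb were nearly equal. Its log2 fold change was 0.26 ± 0.39, and its ratio of counts was 1.20 with a 95% interval of 0.763 to 1.89 (exact binomial, counting error only). The interval includes 1, so these counts do not settle the direction of a difference. Without sibling replicate 2 the log2 fold change of valopb was 0.62 and without sibling replicate 1 it was 0.06. The count of valopa was 1 and 1.39 times that of valopb in mutants and 2.75 and 3.04 times in siblings.

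The encephalopsin gene opn3, a widely expressed opsin first described in brain, had 58 and 73 counts in mutants and 113 and 206 in siblings. These were 3.43 and 4.02 against 8.0 and 9.99 CPM. Sibling libraries were thus both well above mutant ones, and the log2 fold change was -1.29 ± 0.20. It ranged from -1.42 to -1.10 when 1 library was left out.

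The melanopsin genes opn4a and opn4b, whose products signal through Gq proteins and are known from inner retinal and brain neurons, differed by nearly the same factor. For opn4a the counts were 21 and 31 in mutants and 35 and 72 in siblings, or 1.24 and 1.71 against 2.48 and 3.49 CPM. For opn4b they were 41 and 49 against 71 and 112, or 2.42 and 2.70 against 5.03 and 5.43 CPM. Mutant values of both genes lay below the sibling values, with log2 fold changes of -1.04 ± 0.31 for opn4a and -1.03 ± 0.24 for opn4b. The ratio of opn4a to opn4b counts was 0.512 and 0.633 in mutants and 0.493 and 0.643 in siblings, so the groups overlapped. Without sibling replicate 2 the change was -0.74 for opn4a and -0.97 for opn4b.

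The novopsin genes opn6a and opn6b, members of an opsin family described in fish, had the lowest log2 fold changes of the 11 rows. For opn6a the counts were 70 and 44 in mutants and 151 and 213 in siblings, or 4.14 and 2.42 against 10.7 and 10.3 CPM. For opn6b they were 93 and 78 against 245 and 395, or 5.50 and 4.30 against 17.4 and 19.2 CPM. Mutant libraries were under every sibling library for both genes. The mutant libraries differed 1.71-fold from each other for opn6a and 1.28-fold for opn6b. The log2 fold changes were -1.69 ± 0.21 and -1.91 ± 0.16. Leaving out mutant replicate 1 gave -2.12 for opn6a and leaving out mutant replicate 2 gave -1.34. The ratio of opn6a to opn6b counts was 0.753 and 0.564 in mutants and 0.616 and 0.539 in siblings, overlapping between the groups.

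The RGR opsin genes rgra and rgrb encode retinal-binding proteins that act as photoisomerases, known from the retinal pigment epithelium and Müller glia in other vertebrates. The counts of rgra were 946 and 877 in mutants and 920 and 1165 in siblings, or 55.9 and 48.3 against 65.2 and 56.5 CPM. The groups of rgra nearly touched, and the log2 fold change was -0.22 ± 0.10. The counts of rgrb were 1379 and 1447 in mutants and 1048 and 1473 in siblings, or 81.5 and 79.7 against 74.2 and 71.4 CPM, a log2 fold change of 0.15 ± 0.09. Without mutant replicate 1 rgra was at -0.34 and without mutant replicate 2 at -0.12. The signs of the pair were opposite, and the ratio of rgra to rgrb counts was 0.686 and 0.606 in mutants and 0.878 and 0.791 in siblings, which did not overlap. How many pairs of genes in the table have ratios that do not overlap was not counted, so nothing is read from the ratio.

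**Figure D2:**
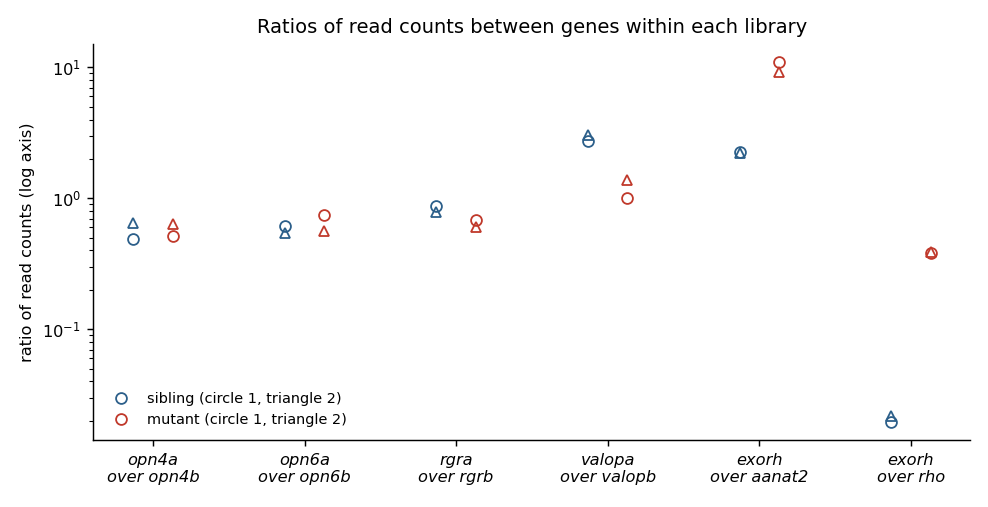
Ratios of read counts between named genes within each library (log axis), siblings in blue and mutants in red, with circles for replicate 1 and triangles for replicate 2. Counts of exorh are those of both its rows added together. The ratios of opn4a to opn4b and of opn6a to opn6b overlap between groups; those of valopa to valopb and rgra to rgrb are lower in mutants, and those of exorh to aanat2 and to rho are higher.

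Mutant and sibling libraries did not overlap in CPM on any of the 11 rows, including valopb, rgra and rgrb; 71.7% of all tested rows did not overlap either. Ordered by log2 fold change, the rows ran from opn6b and opn6a through opn3, opn4a, opn4b and valopa to rgra, rgrb, valopb and the exorh rows. Neighbours in this order mostly lay within their standard errors of each other: opn4a, opn4b and valopa could not be ordered, nor could opn6a and opn6b, rgrb and valopb, or the exorh rows. When each of the 4 libraries was left out in turn, no row changed sign.

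**Figure D3:**
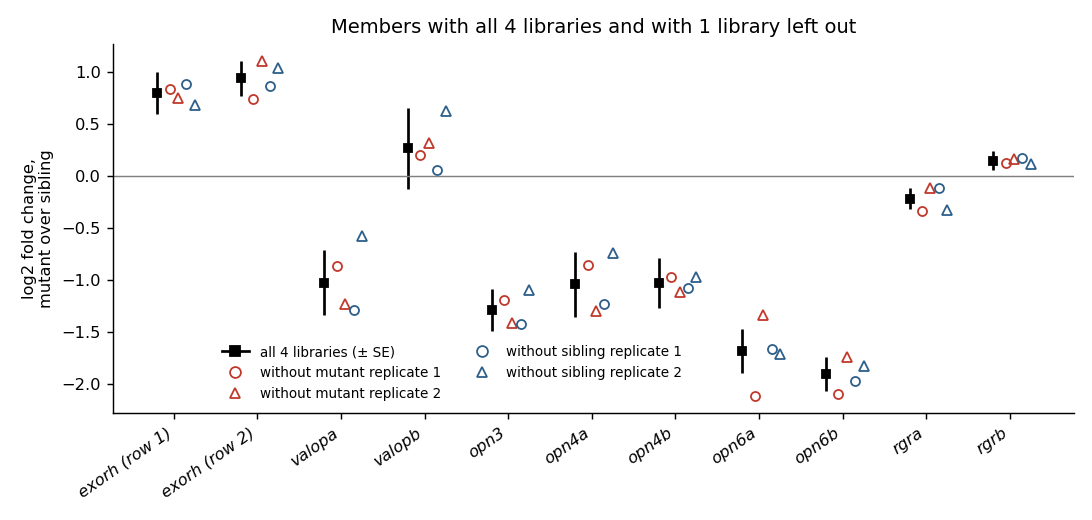
Log2 fold change (mutant over sibling) of the 11 rows with all 4 libraries (black squares, ± SE) and with 1 library left out (red: a mutant library, blue: a sibling library). No point crosses 0; valopa moves from -1.03 to -0.58 without sibling replicate 2 and opn6a from -1.69 to -2.12 without mutant replicate 1.

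By the RefSeq annotation of GRCz12tu, 4 of the 10 genes lie on chromosome 13 (opn3, opn4a, valopa and rgra), 3 on chromosome 12 (opn4b, valopb and rgrb), and opn6a, opn6b and exorh on chromosomes 11, 17 and 8. None lies on chromosome 25, where tubgcp6 is. The melanopsin genes have matching neighbours, with usp54a and ldb3a on either side of opn4a and usp54b and ldb3b on either side of opn4b. The usp54 genes were lower (-0.49 ± 0.10 and -0.61 ± 0.17) and the ldb3 genes were at 0.07 ± 0.09 and 0.06 ± 0.08, short of the threshold. The RGR genes likewise lie between slc18a3a and lrit1a and between slc18a3b and lrit1b. Of these, lrit1a and lrit1b, of retinal leucine-rich repeat proteins, were lower at -1.06 ± 0.15 and -1.66 ± 0.12, whereas slc18a3a and slc18a3b, of the vesicular acetylcholine transporter, were at 0.03 ± 0.11 and -0.05 ± 0.31. Beside other members, cdc42ep3 next to opn3 (0.52 ± 0.13) and coch next to opn6b (0.89 ± 0.12) were higher and gabrz next to valopb (-1.14 ± 0.18) was lower, while kmo, strn, eif4a3, scfd1 and nkx6.2 missed the threshold. Overlaps were taken from whole gene spans in GRCz12tu, without comparing exons, and may differ in GRCz11. The gene valopb overlaps cd37, a leukocyte tetraspanin gene at -0.92 ± 0.44 that did not pass the threshold. The sources used here do not give the strand setting of the counting, so reads of valopb and cd37 may not have been told apart. The same holds for opn3, opn4a and opn6b, each of which overlaps a long non-coding RNA that has no name of its own in the count table.

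Other non-visual opsins were mostly short of the threshold. Among all tested rows, 21.0% fell and 22.9% rose past it, shares to set beside the counts of this and each later list. These lists were also chosen with earlier results of these data known, so their counts are given as a description. A list of 22 further genes matched 21 names on 22 rows; 17 rows passed the filter, of which 4 fell, 0 rose and 13 missed the threshold, at a median log2 fold change of -0.38. The genes that fell were opn9 (-1.19 ± 0.21), the melanopsin genes opn4xb (-0.90 ± 0.15) and opn4.1 (-0.72 ± 0.13), and the first of 2 rows of parietopsin (-0.55 ± 0.17). Their adjusted p in edgeR's quasi-likelihood test was 4.39e-05, 1.37e-05, 4.59e-05 and 0.00997. The parietopsin call was lost in DESeq2, without sibling replicate 1 and without mutant replicate 2, where the value was -0.26; without mutant replicate 1 it was -0.91. The 4 melanopsin genes with tested rows, opn4a, opn4b, opn4xb and opn4.1, had negative log2 fold changes. Because opn4a and opn4b were chosen with this contrast known, nothing is read from their shared sign. The fifth melanopsin gene, opn4xa, had 7 and 7 counts in mutants and 5 and 23 in siblings and did not pass the filter.

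The remaining tested genes of this list did not pass the threshold. The parapinopsin genes, of ultraviolet or visible light receptors of the pineal complex, were at 0.48 ± 0.54 for parapinopsina and 0.22 ± 0.23 for parapinopsinb. For parapinopsinb these were 4.85 and 3.91 CPM in mutants and 3.26 and 4.12 CPM in siblings, so the groups overlapped. The peropsin gene rrh, of a retinal-binding opsin related to RGR, was at 0.21 ± 0.15. The tmt opsin genes tmtops2a, tmtopsb, tmtops3b and tmtops2b were at 0.57 ± 0.26, -0.55 ± 0.25, -0.71 ± 0.44 and -0.41 ± 0.40. The opn5-related genes opn5 (0.14 ± 0.28), opn7b (-0.19 ± 0.50), opn7c (-0.35 ± 0.41) and opn7d (0.29 ± 0.58) were within 1 standard error of 0, and opn8b was at -0.38 ± 0.26. The gene opn8c had 10 counts in mutants and 27 in siblings, and their ratio was 0.367 with a 95% counting interval from 0.158 to 0.782; its log2 fold change was -1.42 ± 0.60, or -2.19 and past the threshold without mutant replicate 1, and it passed with a replicate block too. The list's median depended on single libraries: it was 0.02 without sibling replicate 2, -0.61 without sibling replicate 1 and -0.59 without mutant replicate 1. Without mutant replicate 2, rrh (0.36) and tmtops2a (0.88) rose and tmtopsb (-0.86) fell.

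**Figure D4:**
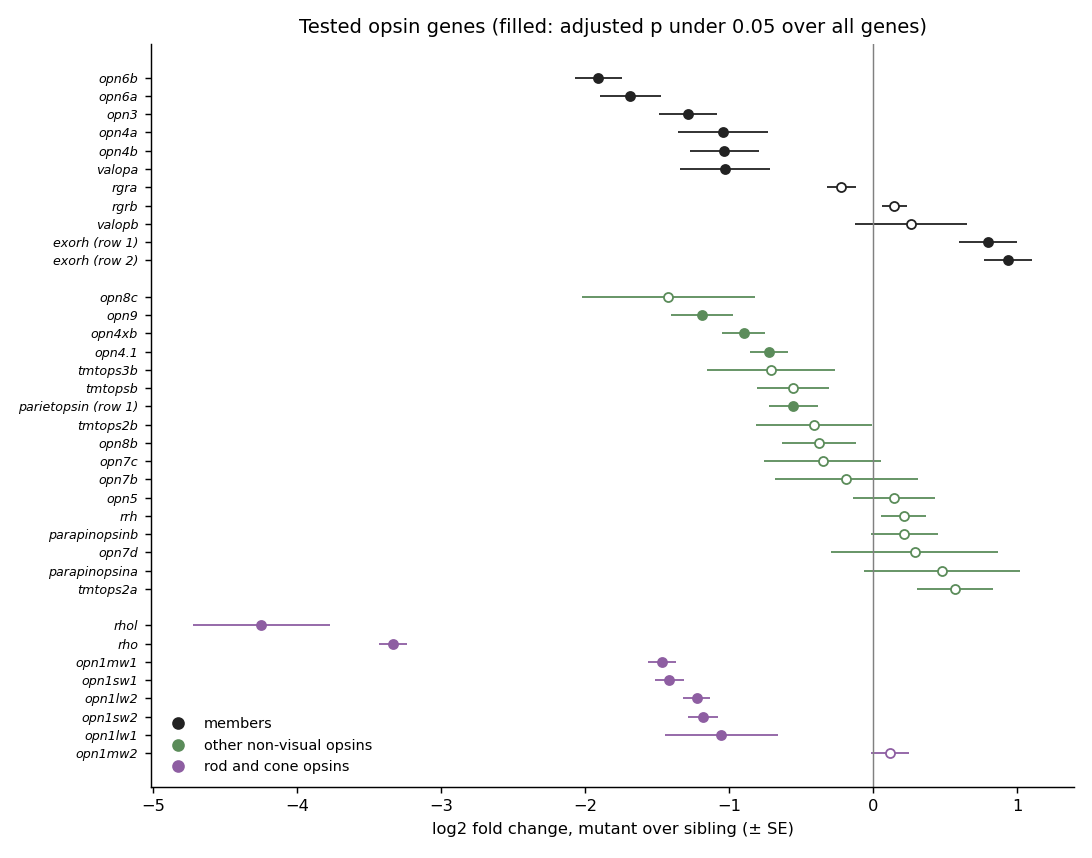
Log2 fold change (mutant over sibling, ± SE) of all tested opsin rows, filled where the adjusted p over all genes was under 0.05. The 10 genes reach from opn6b at -1.91 to exorh at 0.94, the other non-visual opsins from opn8c at -1.42 to tmtops2a at 0.57, and the rod and cone opsins from rhol at -4.25 to opn1mw2 at 0.12.

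Rod and cone opsins, which drive image vision, were mostly lower in mutants. Of 8 tested rows of 10, 7 fell, 0 rose and 1 missed the threshold, with a median of -1.32. The cone opsin genes opn1mw1 (-1.47 ± 0.09), opn1sw1 (-1.42 ± 0.10), opn1lw2 (-1.22 ± 0.10), opn1sw2 (-1.18 ± 0.10) and opn1lw1 (-1.05 ± 0.39) lay between opn4a and opn6a in log2 fold change. The values of opn1lw1 and opn4a (-1.04 ± 0.31) lay within their standard errors of each other and could not be ordered. The call of opn1lw1 was lost in DESeq2, without either mutant replicate and without sibling replicate 2. The gene opn1mw2 (0.12 ± 0.13), 1 of several similar green cone opsin copies, did not pass. The rho-like gene rhol had 6 counts in mutants and 117 in siblings, so that the ratio was 0.0508, with a 95% counting interval from 0.0183 to 0.114. The rows of opn1mw3 and opn1mw4 had too few counts to be tested.

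Genes of the pineal organ did not move with exorh as a block. Of 12 tested genes, 7 fell, 1 rose and 4 missed the threshold, with a median of -0.61. The gene aanat2, of the enzyme that paces melatonin synthesis in the pineal organ, had 1.95 and 2.04 CPM in mutants against 4.75 and 4.90 in siblings (-1.27 ± 0.26, adjusted p = 0.000162 in edgeR's quasi-likelihood test). Within each library exorh, with both rows added together, had 11.0 and 9.19 times the count of aanat2 in mutants and 2.27 and 2.24 times in siblings. The genes asmt and asmt2, of the last enzyme of melatonin synthesis, were at -0.25 ± 0.25 and 0.02 ± 0.19. The summed count of exorh was 5.85 and 5.48 times that of asmt in mutants and 3.62 and 2.13 times in siblings. The 1 gene that rose was tph2, of a serotonin-producing enzyme used in pineal cells and in the raphe, at 0.70 ± 0.18; without sibling replicate 2 it was at 0.54 and not past the threshold.

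The transcription factor genes otx5 (-1.21 ± 0.10) and crx (-1.65 ± 0.12), which act in photoreceptors of both the pineal organ and the retina, fell. So did the photoreceptor genes nr2e3 (-2.36 ± 0.30), gngt2a (-2.20 ± 0.11) and rbp3 (-0.57 ± 0.08), which the retina also uses. The gene tbx2b (-0.25 ± 0.10) fell by little and its call was lost in DESeq2, with scaling by total counts, without mutant replicate 1 and without either sibling replicate. Short of the threshold were bsx (-0.65 ± 0.35), a homeobox gene of the developing pineal organ that was at -1.21 and past the threshold without mutant replicate 1 and at -0.24 without mutant replicate 2, and tph1a (-0.50 ± 0.23). The notochord and pineal gene noto had 4 and 8 counts in mutants and 0 and 5 in siblings and was not tested.

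Listed markers of the retinal cells in which these opsins are known moved as follows. The RNA came from whole embryos, so levels here and for ganglion cell genes include any other tissue that uses the genes. Of 29 tested photoreceptor genes, 27 fell, 0 rose and 2 missed the threshold, at a median of -1.58, with gnat1 at -2.60 ± 0.14, sagb at -2.71 ± 0.12, gngt1 at -2.24 ± 0.14 and rcvrn2 at -1.58 ± 0.10. Their summed level ranged from 794 to 929 CPM in mutants and from 1865 to 1918 CPM in siblings. Within that sum gnb1a, which missed the threshold (-0.07 ± 0.08), held 238 and 244 CPM in mutants and 259 and 247 CPM in siblings. Of 21 genes of horizontal, amacrine and bipolar cells, 16 fell, 1 rose and 4 missed the threshold (median -0.63), among them vsx1 at -1.65 ± 0.13, gnao1b at -0.79 ± 0.10, isl1 at -0.75 ± 0.10 and tfap2b at -0.81 ± 0.11. Without sibling replicate 2, 10 fell. Their summed level was 706 CPM in both mutant libraries and 855 and 881 CPM in siblings. Of that sum gad1b held 170 and 162 CPM in mutants and 201 and 209 CPM in siblings. The part of slc6a9 was 152 and 168 CPM in mutants and 128 and 130 CPM in siblings.

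Of 15 retinal ganglion cell genes, 9 fell, 0 rose and 6 missed the threshold (median -0.57). They included pou4f2 (-1.29 ± 0.12), eomesa (-1.39 ± 0.16), a factor of ganglion cells that in mice include those with melanopsin, rbpms2b (-0.75 ± 0.10) and ebf3a (-0.57 ± 0.08). The paralogue rbpms2a was at 0.03 ± 0.09 and missed the threshold. The summed level of the list was 443 and 424 CPM in mutants and 545 and 529 CPM in siblings. No gene of these 3 lists had 0 counts in all libraries; the horizontal cell connexin gene cx52.7, singled out after its values were seen, had 3 and 0 counts in mutants and 11 and 13 in siblings. The part of these cell markers in the lower levels of opn3, opn4a, opn4b, opn6a, opn6b and valopa was not tested.

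Genes of the retinal pigment epithelium, Müller glia and retinoid handling, the setting of RGR opsins, were mixed. The RNA came from whole embryos, so any reads of these genes from outside the eye are included. Of 28 tested genes, 9 rose, 4 fell and 15 missed the threshold, at a median of 0.10 (0.19 without sibling replicate 1, 0.06 without mutant replicate 1). Without sibling replicate 2, 3 rose, and without sibling replicate 1, 2 fell. The glial glutamate transporter gene slc1a3b (1.31 ± 0.11) and the pigment genes pmela (0.49 ± 0.08) and tyrp1b (0.46 ± 0.08) rose. The glial gene glula fell (-0.25 ± 0.09). Among the other listed pigment genes, dct rose (0.30 ± 0.09). The pigment genes tyr (-0.02 ± 0.10), oca2 (-0.14 ± 0.15), tyrp1a (0.08 ± 0.11) and slc45a2 (0.09 ± 0.09) missed the threshold. The retinaldehyde-binding protein gene rlbp1a fell (-0.88 ± 0.14), while its paralogue rlbp1b rose (0.30 ± 0.09). The summed level of the list was 3236 and 3089 CPM in mutants and 2809 and 2690 CPM in siblings. Of that sum rbp4 alone held 1553 and 1472 CPM in mutants and 1303 and 1262 CPM in siblings. The ratio of rgra to rpe65a counts, the latter of the retinoid isomerase of the pigment epithelium, was 0.437 and 0.423 in mutants and 0.529 and 0.556 in siblings.

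**Figure D5:**
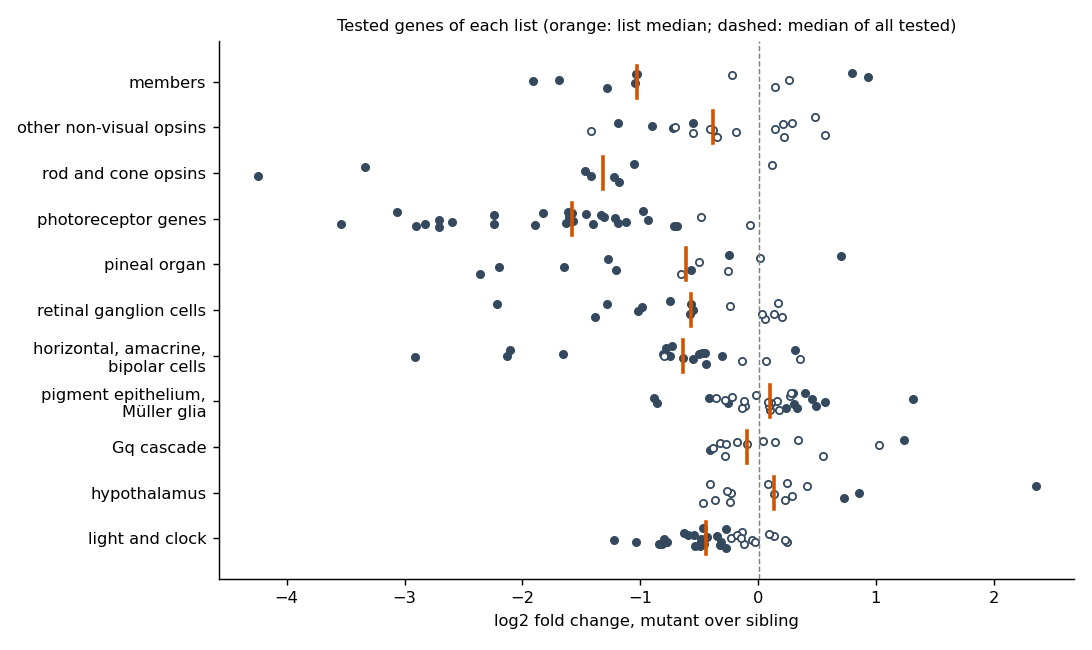
Log2 fold change (mutant over sibling) of the tested genes of each list, filled where the adjusted p over all genes was under 0.05; the orange bar is the list's median and the dashed line the median of all tested genes. The lowest medians are those of photoreceptor genes at -1.58 and of rod and cone opsins at -1.32, and the highest are those of hypothalamic genes at 0.14 and of pigment epithelium and Müller glia at 0.10.

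Genes of the Gq, phospholipase C and TRP channel cascade through which melanopsins signal were mostly short of the threshold. Many tissues use them. Of 13 tested genes, 1 rose, 1 fell and 11 missed the threshold (median -0.09; -0.01 without sibling replicate 1 or mutant replicate 1 and -0.04 without sibling replicate 2). The G protein gene gna14 rose (1.23 ± 0.14) and the arrestin gene arrb1 fell (-0.41 ± 0.13), a call lost in DESeq2 and without either sibling replicate. The G protein gene gna11a (-0.28 ± 0.12) and the channel gene trpc6a (0.55 ± 0.26) did not pass; trpc6a was at 1.15 and past the threshold without sibling replicate 2. Single libraries moved these counts: without mutant replicate 2, 2 rose and 3 fell, without mutant replicate 1, 2 rose, and without sibling replicate 2, 3 rose and 0 fell.

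Hypothalamic genes were listed because deep brain opsins are known there. Of 15 tested, 3 rose, 0 fell and 12 missed the threshold, where 22.9% of all tested rows rose and 21.0% fell. The median of the list was 0.14 (-0.04 without sibling replicate 1, 0.22 without sibling replicate 2 and 0.09 without mutant replicate 1). The hormone genes sst1.1 (0.85 ± 0.12), ghrh (2.36 ± 0.64) and pomca (0.73 ± 0.30, at 2.66 and 2.81 CPM in mutants against 1.77 and 1.55 CPM in siblings) rose, and crhb (-0.47 ± 0.21) did not pass. The call of pomca was lost without any 1 library, in DESeq2, with DESeq2 size factors and with no filter, and that of ghrh in DESeq2; ghrh was at 3.55 without sibling replicate 2. The pituitary also uses pomca. As the RNA came from whole embryos, any reads of the listed genes, sst1.1 and ghrh among them, from outside the hypothalamus are included.

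Light-induced and clock genes respond to light in many zebrafish tissues. Of 34 tested, 23 fell, 0 rose and 11 missed the threshold, at a median of -0.44. The clock repressor genes nr1d2a (-1.04 ± 0.10) and per3 (-0.84 ± 0.10), the light-induced DNA repair gene ddb2 (-0.82 ± 0.11) and the clock gene npas2 (-0.78 ± 0.11) had the smallest p. The light-induced gene per2 was at 121 and 134 CPM in mutants against 168 and 184 CPM in siblings (-0.47 ± 0.09).

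The genes of like pattern were sought among 182 listed genes with a mean of at least 1 CPM, by the Euclidean distance between log2 CPM profiles over the 4 libraries, each centred on its own mean. With 4 libraries such likeness largely restates the difference between groups, and it is given as a description. The nearest to opn3 was aanat2 (distance 0.22), and the nearest to opn4a and valopa was the red cone opsin gene opn1lw1 (0.19 and 0.22). The nearest to opn4b was tbr1b, a transcription factor gene of ganglion cells and forebrain (0.13). The nearest to opn6b was cx52.9, a connexin gene of horizontal cells (0.15), and opn6a lay nearest to the outer segment gene prph2a (0.27) and to crx (0.27). The first exorh row was nearest to pomca (0.08) and tph2 (0.12), and the second to sst1.1 (0.18). The nearest to valopb was the hypothalamic factor gene otpb (0.14), to rgra the retinol dehydrogenase gene rdh8a (0.12) and to rgrb the clock gene bhlhe40 (0.04).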

How the data were processed

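Whole-number read counts per gene, not normalized, were deposited by the authors as 1 table with a column for each of 4 libraries. Tools named in the submitters' processing notes, without roles, are DESeq2 1.26.0, R 4.2.2, featureCounts 2.0.1, STAR 2.7.10a and fastp 0.23.2, with GRCz11 as the build; annotation, strand setting and handling of multi-mapping reads: not given in the sources used here. Libraries had been made from Trizol-extracted total RNA with a NEBNext Ultra kit, per the labels' protocols. The table held 23236 rows, 771 of them 0 in all libraries; the 125 names found on several rows were kept apart by row.

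The test was that of edgeR 4.0.16 in R 4.3.3 (filterByExpr, which removed 3139 rows, TMM scaling, quasi-likelihood F-test) and Benjamini-Hochberg adjustment over 20097 rows, with a threshold of 0.05. The standard error is the size of the log2 fold change over the square root of F. CPM use the TMM-scaled libraries. Count ratios carry exact binomial 95% intervals, which cover counting error only. The method was tested on simulated counts in which few genes differed between groups. In these data 43.9% of tested rows passed the threshold, so that simulation did not check the scaling in such a setting.

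The 10 opsins and the 10 other lists (215 entries, 206 matched, 8 through a RefSeq synonym) were chosen with earlier results of these data known. The genes named are the 10 opsins, tubgcp6 and the tested genes of the non-visual opsin, rod and cone opsin and pineal lists. Also named are the 4 members of smallest p in each other list and the genes of like pattern. Untested rows, neighbouring genes, per2 and rpe65a beside them were named after their values were seen. So were rbp4, rlbp1b, rbpms2a, gad1b, slc6a9, gnb1a, glula, dct, tyr, tyrp1a, slc45a2 and oca2. Alternatives were DESeq2 1.42.0, other scalings, no filter, a replicate block, each library left out, and rows of 1 name summed. Protein and promoter sequences were not used here.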

Additional observations from a re-analysis of the deposited data

How the results depend on the processing

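Of 110 alternative values for the 11 opsin rows, 103 kept their sign and their side of the threshold, which describes these rows and tests nothing; 5 lost that side, 2 gained it, and no sign changed. Where 1 library was left out, the lone library of its group was assumed to vary like the other group. The numbers of genes higher and lower (4595 and 4225) ranged from 2977 to 4840 and from 2429 to 4680 when 1 library was left out, both lowest without sibling replicate 2, and were 3207 and 2916 in DESeq2. The opsin rows higher numbered between 1 and 2 and those lower between 4 and 7 with 1 library left out; with rows of the same name summed, a choice made after the data were seen, 1 was higher, since exorh then is 1 row. Over all other lists 15 genes were higher and 98 lower, between 8 and 21 and between 82 and 100 with 1 library left out. Same-numbered libraries did not deviate together over all genes (correlation 0.018). This correlation includes counting noise and does not settle whether same-numbered libraries shared a clutch or a day. With a replicate block 4827 genes were higher and 4521 lower, and 2 and 7 opsin rows. With 1 library left out, the log2 fold change changed sign for opn5 (-0.10 to 0.33), opn7b (-0.49 to 0.40), opn7d (-0.46 to 1.06), opn8b (-0.63 to 0.048), tmtops2b (-0.87 to 0.30), opn1mw2 (-0.063 to 0.29), asmt (-0.54 to 0.25) and asmt2 (-0.12 to 0.22), none of them called with all libraries. Rows with under 100 counts in every library, such as valopa, valopb and opn4a, are limited by depth. The cause of these changes was not tested.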
